A study of Homo sapiens with 12 samples.

Results

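The messenger RNAs of the cytosolic ribosomal proteins were followed in 786-O cells, a long-established line from a clear cell carcinoma of the kidney without functional VHL. A gene was included where its name was RPL or RPS with a number, an optional A, X or L at the end and nothing more, or where it was RPLP0, RPLP1, RPLP2 or RPSA, and where its mean over 12 libraries was 10 CPM or more. The members were thus chosen by name and by their mean level over all libraries, so those levels are given as a description. This gave 74 genes of 58381 in the deposited table, 44 of the large subunit and 30 of the small subunit. The cells carried a lentiviral hairpin against RARRES2, the gene of the secreted protein chemerin, or a lentiviral hairpin against GFP. The 3 RARRES2 hairpins are named shRARRES2_1, shRARRES2_2 and shRARRES2_3, the control is shGFP, and each group held 3 libraries. All groups shared 1 cell line, culture in DMEM with serum and viral infection, and no uninfected cells were analysed here. Time after infection and the number of clones or pools per hairpin are not given in the sources used here. No label says that libraries of a group came from separate cultures, so a p-value reflects how far these samples spread, possibly for technical reasons. RNA came from bulk cultures, in which fewer cells of a type and less RNA per cell cannot be told apart.

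Each ribosome pairs a small subunit, which reads the messenger RNA, with a large subunit, which forms the peptide bond and extrudes the new chain through its exit tunnel. Nearly every ribosomal protein is present as a single copy per ribosome, and a surplus of an unassembled one is usually degraded, so their messenger RNAs are generally made in balanced amounts. Most of these messenger RNAs begin with a C and an uninterrupted run of pyrimidines, the 5′ terminal oligopyrimidine (5′ TOP) motif, through which the mTOR kinase and the protein LARP1 control their translation and stability.

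The start sites of 60 of the 74 genes were in the RefSeq promoter table (GRCh38.p14); the other 14 were not used here. A start was counted as 5′ TOP where the first transcribed base was C and at least 4 pyrimidines followed it. At least 1 such start was annotated for 44 of these 60 genes (73.3%), against 1404 of 27305 genes in the table (5.14%). The share was 27 of 36 large-subunit genes (75%) and 17 of 24 small-subunit genes (70.8%). The windows printed here belong to genes that the comparisons turn on. They run from 10 bases before the annotated start to 25 bases from it, 5′ to 3′, with the run of pyrimidines from the first transcribed base in capitals.
RPS27: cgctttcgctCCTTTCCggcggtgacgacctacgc at chr1:153990752-153990786, plus strand
RPS27L: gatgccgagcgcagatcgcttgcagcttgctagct at chr15:63157453-63157487, minus strand
RPS26: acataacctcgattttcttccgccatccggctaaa at chr12:56041908-56041942, plus strand
RPS9: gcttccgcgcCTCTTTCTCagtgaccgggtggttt at chr19:54200848-54200882, plus strand
RPSA: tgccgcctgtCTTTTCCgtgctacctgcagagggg at chr3:39406710-39406744, plus strand
RPL26: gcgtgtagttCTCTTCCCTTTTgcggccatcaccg at chr17:8383169-8383203, minus strand
RPL31: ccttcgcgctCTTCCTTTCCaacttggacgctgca at chr2:101002279-101002313, plus strand
RPL13A: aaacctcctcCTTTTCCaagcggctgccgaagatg at chr19:49487598-49487632, plus strand
RPL37A: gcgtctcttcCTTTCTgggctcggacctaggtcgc at chr2:216498834-216498868, plus strand
RPLP0: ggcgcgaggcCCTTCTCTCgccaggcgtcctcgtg at chr12:120201087-120201121, minus strand
RPLP1: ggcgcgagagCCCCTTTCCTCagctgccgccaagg at chr15:69452808-69452842, plus strand
RPLP2: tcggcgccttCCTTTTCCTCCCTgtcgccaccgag at chr11:809957-809991, plus strand
RPS27 and its paralog RPS27L differ in this feature: the first transcribed bases of RPS27 form a run of 7 pyrimidines, and the annotated start of RPS27L has no C. RPS26 also lacks the motif at its annotated start. The letters CCGGAA, on either strand, were found between 250 bases before and 50 after the start in 35 of the 60 genes (58.3%) and in 20.1% of all genes in the table. AAGATGGC, on either strand, was found in 6 (10%), against 3.52%.

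Depth was 12599424 to 23594195 reads on genes. RARRES2, the targeted gene, averaged 39.7 ± 1.91 CPM in shRARRES2_1 cells, 73.2 ± 19.5 with shRARRES2_2 and 44.8 ± 4.72 with shRARRES2_3, against 587 ± 192 CPM with shGFP (SD, n = 3 each). Of 10 markers of renal carcinoma cells all were detected in every library, whereas CA9, a target of hypoxia-inducible factors, averaged 1.31 CPM. The median of 10 keratinocyte markers was 35.8 CPM in shGFP replicate 2 and 0.148 to 4.65 CPM in the other libraries, and the medians of leukocyte, endothelial and fibroblast markers were at most 0.0892, 1.31 and 4.47 CPM. KRT8 and VIM were lowest in shRARRES2_3 replicate 2 and shGFP replicate 2. Those 2 libraries stand apart, as do the first replicates of shRARRES2_1 and shRARRES2_3, whose values moved with GC content.

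Levels were compared between genes per kilobase of the representative transcript, as the mean over 12 libraries. The highest were 3075 CPM per kb for RPL8, which lies by the site of peptide bond formation, 2279 for RPS18 of the small-subunit head, 2138 for RPL35 at the rim of the exit tunnel, 1919.6 for RPS21 and 1897 for RPL13. The lowest were 6.03 for RPS27L, 7.25 for RPS23 of the decoding centre, 19.5 for RPL23A, 21.5 for RPL26 and 57.8 for RPS15A. The median level was 860 CPM per kb over the large-subunit genes and 1007 CPM per kb over the small-subunit genes. RPL23A has 23 processed copies listed as separate genes, RPS15A has 9, RPL26 has 6 and RPS23 has 2, and the sources used here do not give how reads with several possible origins were counted. The transcripts taken for RPS27L and RPS23 were 6434 and 3437 nt long, which lowers a value per kb. Those of RPL37, RPL27A and RPL37A of the large subunit were 7686, 4916 and 3647 nt, against a median of 714 nt over the members. Such values enter the medians of both subunits, and the GC content used below is that of the same transcripts. The levels of the genes named for copies or long transcripts are therefore uncertain, as is that of RPL10, of whose exon bases 55.5% overlap another gene.

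At the threshold of 10 CPM, RPL26, RPS23 and RPS15A lay just inside with means of 11.4, 24.9 and 30.3 CPM. Among those outside, RPL36A had 6.96, RPL17 3.63 and RPS10 2.67 CPM, and 5 others of the 83 genes that match by name were under 1 CPM, among them RPL3L, RPL39L and RPL10L. The deposited table also lists RPL36A-HNRNPH2 and RPS10-NUDT3, joint genes by their names, at 0 CPM in every library. How reads shared with such genes were counted is not given, so the levels of RPL36A and RPS10 are uncertain. RPL36A had 0.69, 6.25 and 5.82 CPM with shRARRES2_1, 5.92, 7.43 and 6.8 with shRARRES2_2 and 0.985, 7.03 and 8.2 with shRARRES2_3, against 12.7, 10.9 and 10.8 CPM with shGFP. Its first replicates with shRARRES2_1 and shRARRES2_3, the libraries that moved with GC content, were under 1 CPM. The 9 hairpin libraries lay below the controls, as was the case for 0.729% of all genes tested. All 74 genes had at least 1 CPM in every library, so none was lost to the filter on low values.

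The share of all reads that fell on the 74 genes varied widely within 3 of the 4 groups. It was 7.83, 3.42 and 3.14 percent with shRARRES2_1, 4.84, 4.58 and 4.997 with shRARRES2_2 and 7.98, 6.6 and 4.4 with shRARRES2_3, against 5.38, 8.86 and 4.24 percent with shGFP. The first replicates of shRARRES2_1 and shRARRES2_3 and the second of shGFP were highest, the last replicate of shRARRES2_1 was lowest, and the range of every hairpin overlapped that of shGFP. Group means were 4.80 ± 2.63, 4.81 ± 0.208 and 6.33 ± 1.81 percent with the 3 hairpins in order, against 6.16 ± 2.41 percent with shGFP (SD, n = 3 each). The shRARRES2_2 libraries lay closest together.

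**Figure D1:**
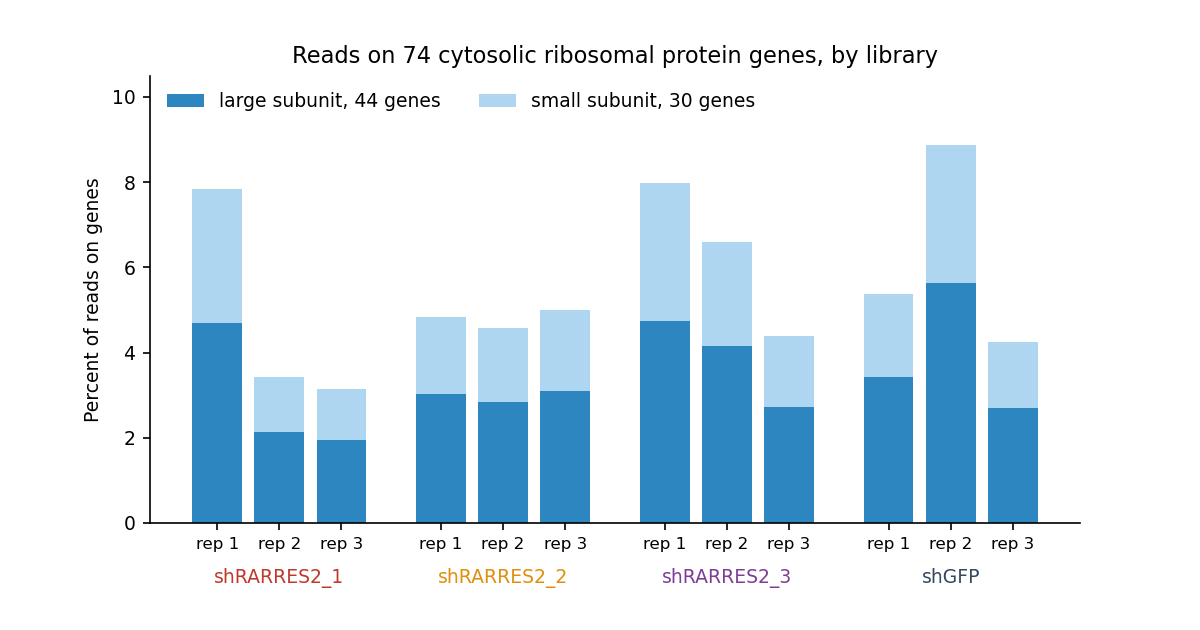
Percent of each library's reads on large-subunit (dark) and small-subunit (light) ribosomal protein genes, 1 bar per library and 3 libraries per group. The bars of shRARRES2_1 replicate 1, shRARRES2_3 replicate 1 and shGFP replicate 2 stand at 7.83, 7.98 and 8.86 percent, and those of shRARRES2_1 replicates 2 and 3 at 3.42 and 3.14 percent.

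The genes moved together from library to library. A single axis held 81.0% of the variance of the 74 genes over the 12 libraries (principal components of log2(CPM + 1), centred by gene), and the second held 11.5%. The library with the highest value was shGFP replicate 2 for 26 genes, shRARRES2_3 replicate 1 for 24 and shRARRES2_1 replicate 1 for 23, and shRARRES2_1 replicate 3 had the lowest value for 66. RPLP2, RPL35A, RPS29, RPLP1 and RPS21 followed the median of all members most closely, with SDs of their departure from it of 0.10, 0.11, 0.12, 0.13 and 0.15 (log2). RPS27L, RPS26, RPL26, RPS9 and RPL23 departed most, with SDs of 0.75, 0.75, 0.69, 0.66 and 0.46.

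**Figure D2:**
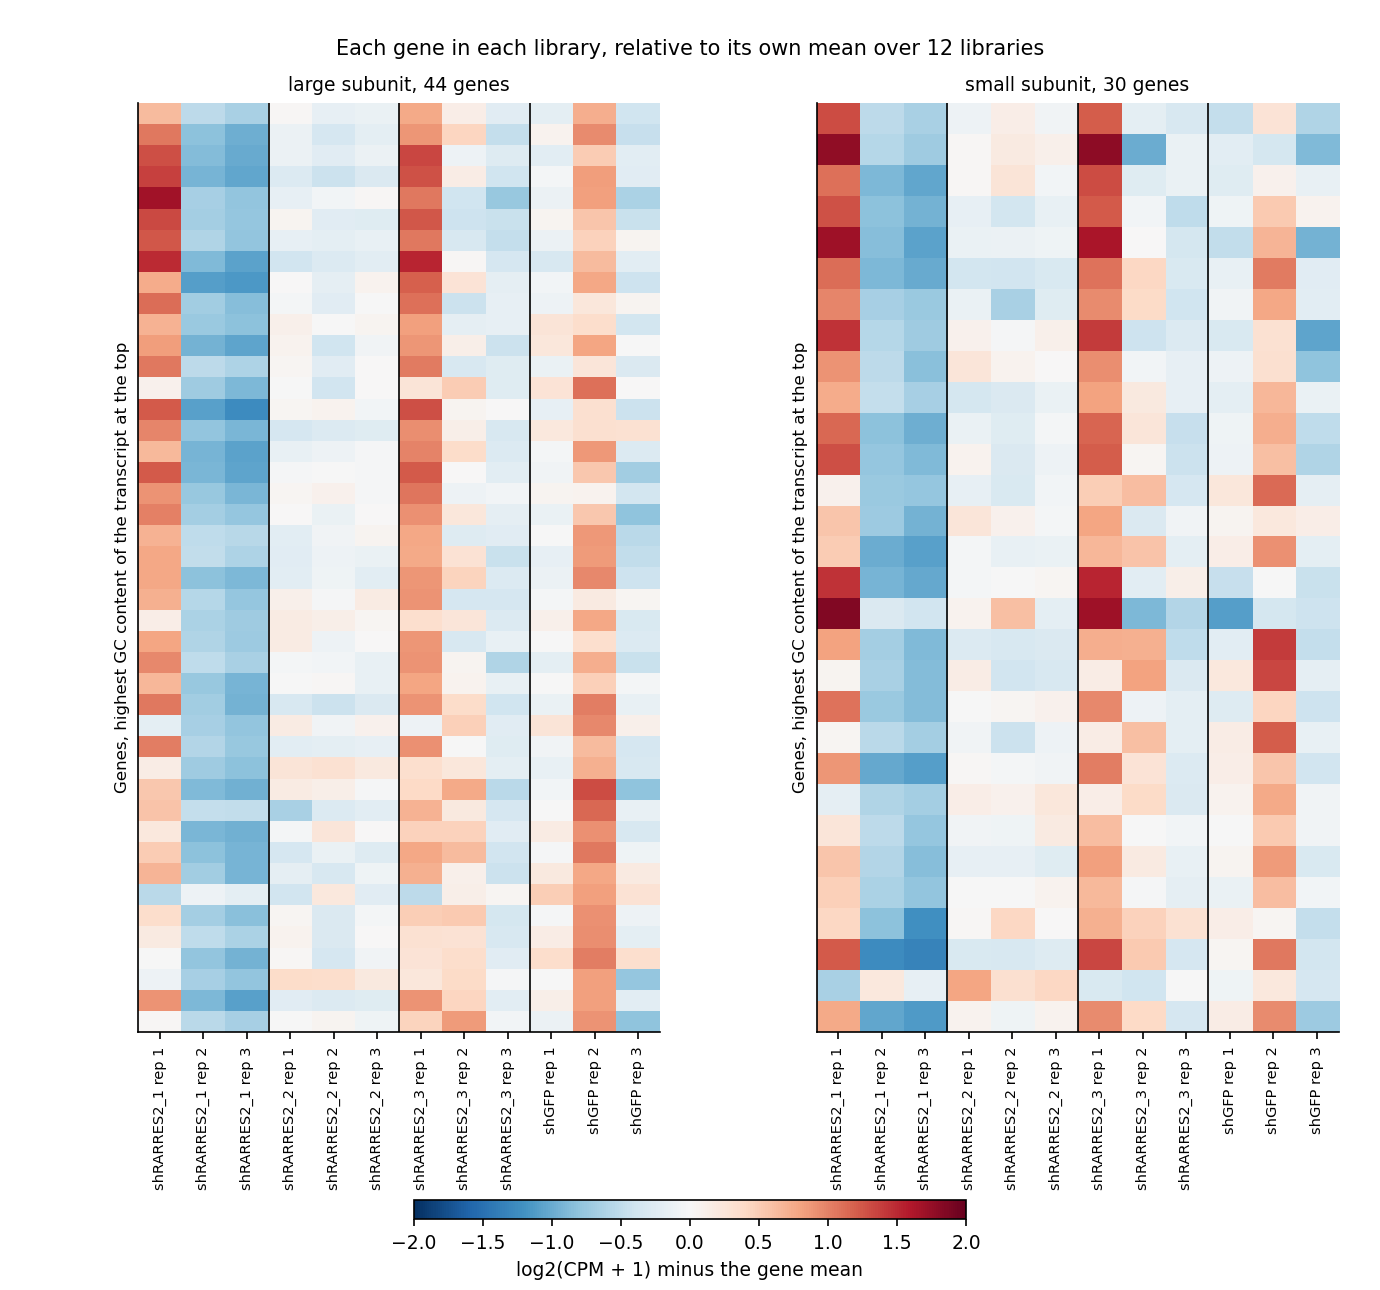
Value of each of 44 large-subunit and 30 small-subunit genes (rows, ordered by GC content of the transcript) in each of 12 libraries (columns), as log2(CPM + 1) minus the mean of that gene, from blue (low) to red (high). Rows carry no gene names. Most columns are mainly of 1 colour, and shRARRES2_1 replicate 1 and shRARRES2_3 replicate 1 are reddest in the upper rows, where GC content is highest.

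The 3 libraries with many reads on these genes were not high for the same ones. In shRARRES2_1 replicate 1 the CPM of the median member was 3.04 times the mean of replicates 2 and 3, with 72 of 74 members above 1 and the lowest ratio, 0.610, for RPS27L. In shRARRES2_3 replicate 1 the ratio to replicate 3 was 2.24 at the median, with 72 of 74 above 1, 4.91 for RPS26 and 0.648 for RPL26. Replicate 2, which stands apart, was left out of this ratio. Against replicate 2 the median difference was 0.68 on the log2(CPM + 1) scale, with 61 of 74 members higher in replicate 1. In shGFP replicate 2 the ratio to the mean of replicates 1 and 3 was 1.86 at the median, with 74 of 74 above 1, 3.36 for RPS13 and 1.03 for RPL12.

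GC content moved with the first 2 of these and not with the third. Across the 74 genes, the correlation between GC content of the transcript and departure from the gene's mean was 0.61 in shRARRES2_1 replicate 1 and 0.57 in shRARRES2_3 replicate 1, and lay between -0.42 and -0.13 in the other 10 libraries (Pearson, across genes, which share each library and are not independent). A gene's departures cancel out over all libraries, so positive values in some entail negative ones, on balance, in the others. The negative values are therefore no separate finding. Across 15224 tested genes with a known transcript it was 0.35 and 0.26 in those libraries and between -0.20 and 0.07 in the others. The 37 members at or above the median GC content had median levels of 1746 and 1685 CPM in the same libraries, against 393 to 1031 CPM elsewhere; the 37 below it had 746 and 766 CPM, against 277 to 977 CPM elsewhere. The part of GC content in the differences between libraries was not tested.

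**Figure D3:**
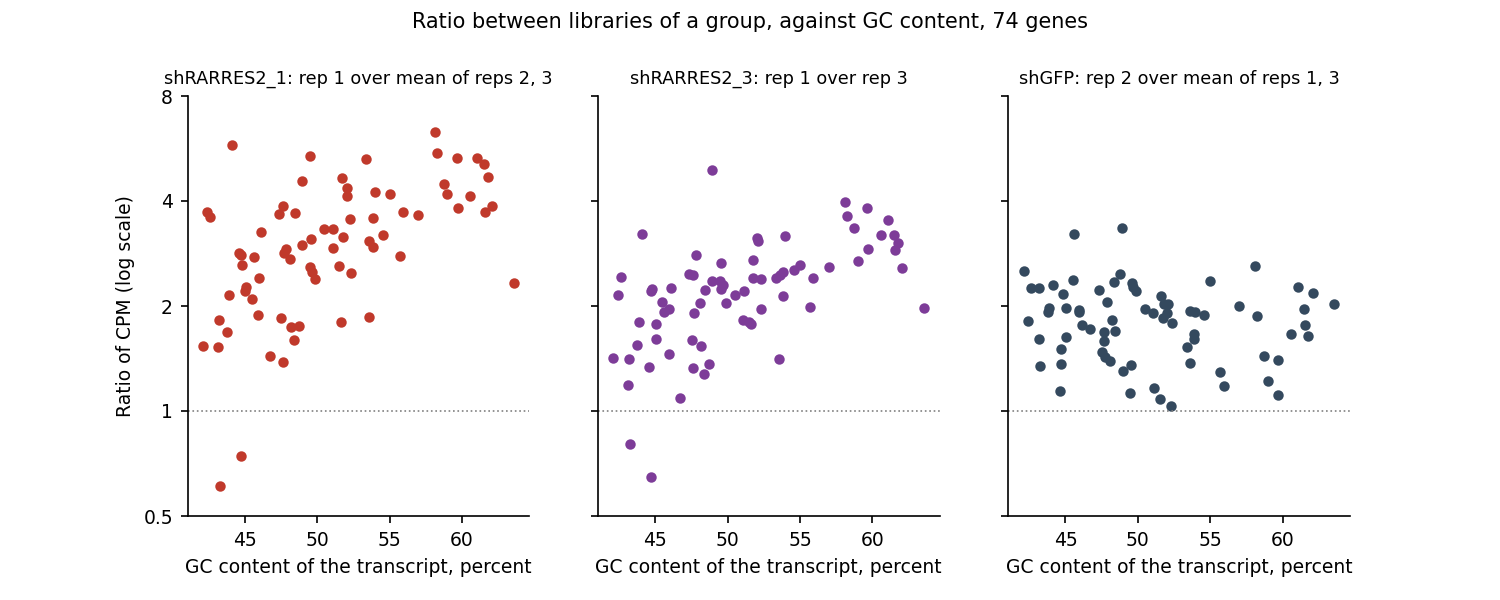
Ratio of CPM between libraries of 1 group (vertical axis, log scale) against GC content of the transcript (percent), 1 point for each of 74 ribosomal protein genes. Ratios for the first replicates of shRARRES2_1 and shRARRES2_3 are higher for GC-rich genes, with medians of 3.04 and 2.24, whereas those for shGFP replicate 2 lie between 1.03 and 3.36 at all GC contents. The ratio for shRARRES2_3 is to replicate 3 alone, and the others are to the mean of the remaining replicates.

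The balance between the subunits was steadier than the level. The large-subunit share of reads on the 74 genes was 59.9, 62.3 and 62.4 percent with shRARRES2_1, 62.2, 61.8 and 61.9 with shRARRES2_2 and 59.5, 62.8 and 61.98 with shRARRES2_3, against 63.8, 63.6 and 63.8 percent with shGFP. All 9 hairpin libraries lay below the 3 controls; the highest of them, shRARRES2_3 replicate 2, was 0.786 percentage points under the lowest control. Means were 61.5 ± 1.41, 62.0 ± 0.211 and 61.4 ± 1.72 percent with the 3 hairpins in order, against 63.7 ± 0.111 percent with shGFP (SD, n = 3 each). This share compares genes of 1 library with each other, so the scaling of libraries does not enter it. It was singled out after its values were seen and carries no test.

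**Figure D4:**
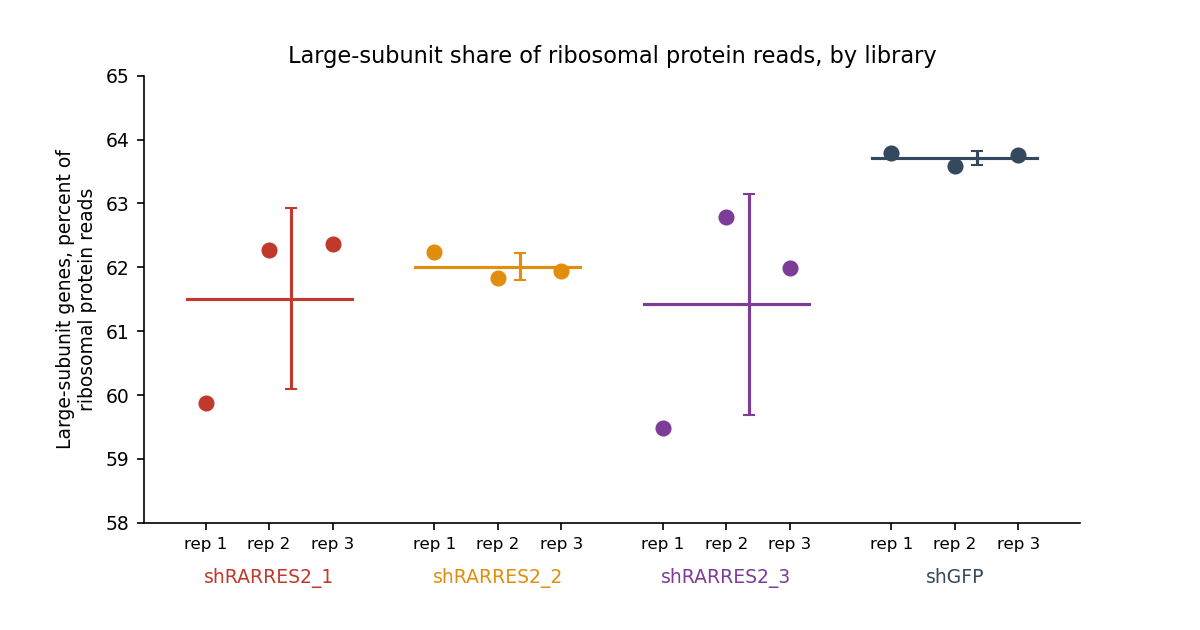
Reads on large-subunit genes as percent of reads on all 74 ribosomal protein genes (axis not from 0), 1 point per library, with the group mean (line) and SD (bar, n = 3). The 3 shGFP libraries lie between 63.6 and 63.8 percent and the 9 hairpin libraries between 59.5 and 62.8 percent.

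All 9 hairpin libraries were also below the controls in a mean over genes, but the medians of the subunits lay closer together. The mean log2(CPM + 1) of large-subunit genes minus that of small-subunit genes was 0.188, 0.289 and 0.322 log2 units with shRARRES2_1, 0.257, 0.267 and 0.283 with shRARRES2_2 and 0.158, 0.354 and 0.263 with shRARRES2_3, against 0.422, 0.439 and 0.413 log2 units with shGFP. Relative to shGFP, it differed by -0.16 with shRARRES2_1, -0.16 with shRARRES2_2 and -0.17 with shRARRES2_3; the 3 comparisons share their control libraries. These are differences of means. The median change was -0.44 for large-subunit and -0.39 for small-subunit genes with shRARRES2_1, -0.19 and -0.12 with shRARRES2_2, and 0.09 and 0.20 with shRARRES2_3. The medians thus differed by -0.049, -0.075 and -0.11, and by -0.0045 for the mean of the 3 hairpins (-0.158 and -0.154). Without shRARRES2_1 replicate 1 and shRARRES2_3 replicate 1, an alternative added after the data were seen, the differences of means were -0.12, -0.16 and -0.12. Without shRARRES2_3 replicate 2 and shGFP replicate 2 they were -0.15, -0.15 and -0.21. Mean GC content was 50.8 percent for the large-subunit and 50.9 percent for the small-subunit genes. The pooled SD of the difference of means within groups was 0.0610 log2 units, against 0.57 for the median of all members.

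The order of the libraries held without any one of the genes, and its size varied. When each gene was left out in turn, the distance between the lowest control and the highest hairpin library ranged from 0.211 points, without RPS6, the target of S6 kinases, to 0.975 points, without RPLP0. Gene by gene, the share of ribosomal protein reads was lower in all 9 hairpin libraries than in all 3 controls for RPL37, RPL37A and RPL13A, which are 3 of 44 large-subunit genes, and for 0 of 30 small-subunit genes. Of all genes tested, scaled in the same way, 0.112% met that criterion. The share was higher in all 9 for RPL15 alone, and 0.637% of all genes met the opposite criterion. Dividing by ribosomal protein reads takes out what the members share and adds it to other genes, so these percentages are no like background. In CPM, 1 of 74 members (1.35%) was lower in all 9 hairpin libraries, against 0.729% of all genes.

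Of the ribosomal protein reads, RPL37, which carries a zinc finger, took 0.97, 1.81 and 1.79 percent with shRARRES2_1, 1.9, 1.57 and 1.83 with shRARRES2_2 and 1.14, 2.11 and 1.9 with shRARRES2_3, against 2.43, 2.37 and 2.85 percent with shGFP. The 9 hairpin libraries lay at or below 2.11 percent and the controls at or above 2.37 percent. RPL37A, also a zinc-finger protein of the large subunit, took 1.33, 1.67 and 1.56 percent with shRARRES2_1, 1.43, 1.37 and 1.56 with shRARRES2_2 and 1.33, 1.54 and 1.42 with shRARRES2_3, against 1.86, 1.7 and 2.21 percent with shGFP. Its groups were separated by a small distance, with shRARRES2_1 replicate 2 closest to the controls. RPL13A, which outside the ribosome takes part in translational silencing in the interferon response, took 1.9, 1.78 and 1.81 percent with shRARRES2_1, 2.15, 1.64 and 1.99 with shRARRES2_2 and 1.91, 1.98 and 1.8 with shRARRES2_3, against 2.42, 2.2 and 2.47 percent with shGFP. RPL15, a gene mutated in some patients with Diamond-Blackfan anaemia, ran the other way with 1.89, 1.91 and 1.94 percent with shRARRES2_1, 1.84, 1.75 and 1.88 with shRARRES2_2 and 1.73, 1.88 and 1.89 with shRARRES2_3, against 1.68, 1.64 and 1.25 percent with shGFP.

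Small-subunit genes stood at the other end of this scale. The ratio of the mean share in 9 hairpin libraries to that in the controls was highest for RPS26, RPS9, RPS14, RPSA and RPS15, at 0.998, 0.82, 0.59, 0.54 and 0.49 (log2). It was lowest for RPL37, RPL26, RPL31, RPS27 and RPL23, at -0.61, -0.47, -0.45, -0.44 and -0.39. The 5 highest are all of the small subunit, and 4 of the 5 lowest are of the large subunit. The first replicates of shRARRES2_1 and shRARRES2_3, whose values moved with GC content, weighed on both ends. RPL23 took 0.46 and 0.48 percent there, against 1.03 to 1.27 in the other hairpin libraries. RPS9 took 1.86 and 1.84 percent, against 0.47 to 1.26. The ranking without these libraries is not given here.

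In the tests of single genes, 0 of the 74 members passed at an adjusted p of 0.05 with any hairpin (limma on log2(CPM + 1), 15236 genes, Benjamini-Hochberg). The share of all tested genes that passed was 0.171% with shRARRES2_1, 0.0459% with shRARRES2_2 and 0.00656% with shRARRES2_3. For the mean of the 3 hairpins it was 0.00656%, and in the F-test between hairpins 0.249%, again with 0 members. The lowest adjusted p of a member was 0.213 (RPL37) with shRARRES2_1, 0.353 (RPL26) with shRARRES2_2 and 0.876 with shRARRES2_3. At an unadjusted p under 0.05, limma had 8, 1 and 1 members below shGFP with the hairpins in order, and 0 above; the shares of all genes in either direction were 16.7%, 13.7% and 3.32%. edgeR on recovered reads also called 0 members, with lowest adjusted p of 0.239, 0.354 and 0.914. DESeq2 called RPL37 lower with shRARRES2_1 (log2 -1.16, adjusted p = 0.0447) and 0 members with the other hairpins. Of the 15236 genes, DESeq2 called 497, 347 and 16 with the hairpins in order. The share of members called with shRARRES2_1, 1 of 74, was thus below that of all genes.

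As a group the members were low in limma with shRARRES2_1, less so with shRARRES2_2, and not with shRARRES2_3. The median change was -0.44, -0.18 and 0.11, against 0.04, 0.07 and 0.00 over all genes tested. Below 0 were 65 and 54 of 74 members with the first pair of hairpins, and above 0 were 54 with shRARRES2_3. Single libraries set these medians. Without shGFP replicate 2 they became -0.08, 0.08 and 0.43, and without shRARRES2_1 replicate 1 that of shRARRES2_1 became -0.88. Without shRARRES2_3 replicate 1 that of shRARRES2_3 became -0.18, and it was -0.001 with 37 of 74 members below 0 when libraries were scaled to the same total. By DESeq2 on recovered reads the medians were -0.28 for large-subunit and -0.23 for small-subunit genes with shRARRES2_1, against -0.42 and -0.27 with shRARRES2_2. By edgeR they were -0.31 and -0.27, against -0.40 and -0.25, so the order of these hairpins depended on the method. With shRARRES2_1 replicates 2 and 3 averaged, the limma medians of shRARRES2_1 were -0.15 and -0.16. Keratinocyte markers were high in shGFP replicate 2, as given above, and their part in the medians was not tested.

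**Figure D5:**
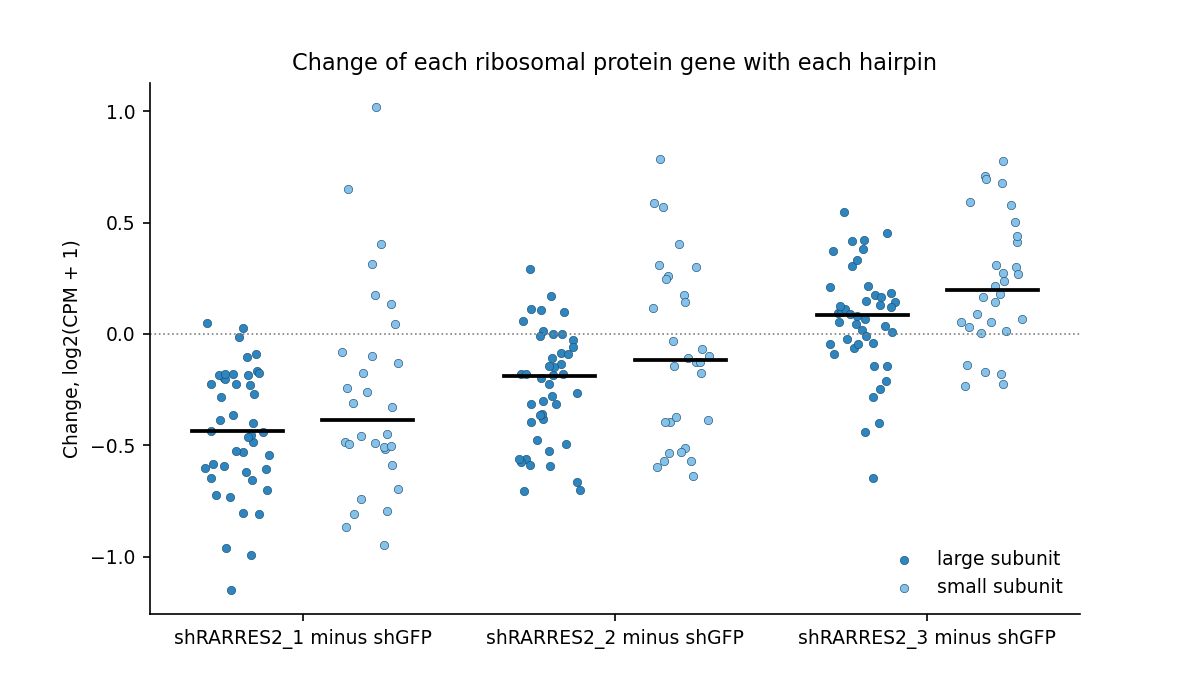
Change of each ribosomal protein gene relative to shGFP, on the log2(CPM + 1) scale, for the 3 hairpins; dark points are 44 large-subunit genes, light points 30 small-subunit genes, and black lines their medians. RPL37 is lowest at -1.15 with shRARRES2_1, RPS26 highest at 1.02, and no point passed the adjusted threshold of 0.05.

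Among the large-subunit genes, RPL37 (ENSG00000145592.13, chr5:40825262-40835335, minus strand) had 952, 551 and 496 CPM with shRARRES2_1, 967, 757 and 907 with shRARRES2_2 and 1150.0, 1211 and 817 with shRARRES2_3, against 1222, 1947 and 1197 CPM with shGFP. The 3 libraries of shRARRES2_1, and those of shRARRES2_2, lay below all controls, and shRARRES2_3 overlapped them. It had changes of -1.15 ± 0.36 with shRARRES2_1, -0.70 ± 0.36 with shRARRES2_2 and -0.44 ± 0.36 with shRARRES2_3 on the log2(CPM + 1) scale (± SE; limma adjusted p = 0.213, 0.405 and 0.876). Groups that did not overlap, in the lower direction, were found with shRARRES2_1 for RPL37, RPL23, RPL26 and RPS24, 4 of 74 members (5.41%), against 15% of all genes. Such members numbered 12 of 74 (16.2%) with shRARRES2_2, against 11.7% of all genes, and 1 with shRARRES2_3, against 3.63%.

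RPL26 (ENSG00000161970.13, chr17:8377516-8383250, minus strand) of the tunnel rim was the single member whose CPM was lower in all 9 hairpin libraries than in all controls, against 0.729% of all genes; 0 members were higher in all 9, against 0.788%. It had 7.22, 10.03 and 9.4 CPM with shRARRES2_1, 8.09, 12.7 and 9.16 with shRARRES2_2 and 7.3, 11.9 and 11.3 with shRARRES2_3, against 15.7, 19.96 and 13.5 CPM with shGFP. The highest hairpin library, shRARRES2_2 replicate 2, was under the lowest control, shGFP replicate 3. It had changes of -0.81 ± 0.30 with shRARRES2_1, -0.67 ± 0.30 with shRARRES2_2 and -0.65 ± 0.30 with shRARRES2_3 on the log2(CPM + 1) scale (± SE; limma adjusted p = 0.247, 0.353 and 0.876). RPL26 is also the member closest to the threshold, and it has 6 processed copies.

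RPL23, which binds the p53 inhibitor MDM2, had 456, 331 and 302 CPM with shRARRES2_1, 585, 501 and 557 with shRARRES2_2 and 486, 727 and 446 with shRARRES2_3, against 629, 1021 and 562 CPM with shGFP. All shRARRES2_1 libraries were under the controls, and libraries of the other hairpins overlapped them. RPL31, at the tunnel rim, had 691, 397 and 347 CPM with shRARRES2_1, 644, 495 and 650.4 with shRARRES2_2 and 772, 927 and 547 with shRARRES2_3, against 782, 1388 and 650.1 CPM with shGFP. In shRARRES2_1 the first replicate overlapped the controls, and the change was -0.96 ± 0.38 (log2, SE; limma adjusted p = 0.263). RPL30 had the lowest change with shRARRES2_2, -0.70 ± 0.40 (limma adjusted p = 0.446), with its 3 libraries at 54.96, 71.3 and 74.4 CPM, against 85.6, 193 and 77.5 CPM with shGFP.

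Among the small-subunit genes, RPS26 (ENSG00000197728.10, chr12:56041351-56044697, plus strand), a component near the exit of the messenger RNA channel, had 613, 139 and 130.2 CPM with shRARRES2_1, 178, 258 and 148 with shRARRES2_2 and 552, 90.5 and 112 with shRARRES2_3, against 78.02, 133 and 126 CPM with shGFP. All shRARRES2_2 libraries were above the controls, and those of the other hairpins spread across them. The first replicates of shRARRES2_1 and shRARRES2_3 were the highest of all. It had changes of 1.02 ± 0.68 with shRARRES2_1, 0.78 ± 0.68 with shRARRES2_2 and 0.70 ± 0.68 with shRARRES2_3 on the log2(CPM + 1) scale (± SE; limma adjusted p = 0.417, 0.596 and 0.876), and 13 processed copies are listed.

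RPS9 (ENSG00000170889.13, chr19:54200742-54249003, plus strand), which lies by the entry of that channel, had 1824, 362 and 327 CPM with shRARRES2_1, 542, 607 and 576 with shRARRES2_2 and 1863, 267 and 489 with shRARRES2_3, against 461, 418 and 289 CPM with shGFP. Again shRARRES2_2 did not overlap shGFP, while shRARRES2_3 replicate 2 was the lowest library. It had changes of 0.65 ± 0.70 with shRARRES2_1, 0.59 ± 0.70 with shRARRES2_2 and 0.71 ± 0.70 with shRARRES2_3 on the log2(CPM + 1) scale (± SE; limma adjusted p = 0.609, 0.701 and 0.876). Members above all controls were RPS9, RPS26 and RPS27L with shRARRES2_2, 3 of 74, against 16.4% of all genes. With shRARRES2_1 there were 0, against 17%, and with shRARRES2_3 there was RPS23, against 3.03%.

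RPSA, also known as the laminin receptor, had 3037, 582 and 549.5 CPM with shRARRES2_1, 1087, 1101 and 1141 with shRARRES2_2 and 3204, 957 and 1205 with shRARRES2_3, against 811, 1103 and 818 CPM with shGFP. It was highest with the first replicates of shRARRES2_1 and shRARRES2_3, and each hairpin overlapped the controls. Its change with shRARRES2_3, 0.78 ± 0.62, was the highest of the members there (limma adjusted p = 0.876). RPS14, whose loss of a copy underlies the anaemia of the 5q- syndrome, and RPS15 had changes between 0.26 and 0.58 over the 3 hairpins. RPS24 had the 3 shRARRES2_1 libraries at 606, 452 and 425 CPM, against 721, 1157 and 653 CPM with shGFP, without overlap and with limma adjusted p = 0.282.

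The lists by place and role showed no called gene with any hairpin. The P stalk, RPLP0, RPLP1 and RPLP2, recruits elongation factors. RPLP0 had 3377, 678 and 603 CPM with shRARRES2_1, 1481, 1513 and 1389 with shRARRES2_2 and 3522, 1508 and 1459.6 with shRARRES2_3, against 1288, 1799.9 and 1073 CPM with shGFP. The spread within shRARRES2_1 exceeded any difference between group means. The 3 genes had median changes of -0.28, -0.14 and 0.17 with the hairpins in order. RPL5 and RPL11 bind the 5S ribosomal RNA and, when unassembled, MDM2, and their median changes were -0.70, -0.13 and -0.05. RPL11 had 782, 462 and 437 CPM with shRARRES2_1, 801, 774 and 730.0 with shRARRES2_2 and 906, 843 and 589.9 with shRARRES2_3, against 767, 1224 and 576 CPM with shGFP. Its shRARRES2_1 replicate 1 and every library of the other hairpins lay within the range of the controls, and shRARRES2_1 replicates 2 and 3 lay under it.

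Of 8 proteins of the exit tunnel and its rim, 7, 7 and 5 were below shGFP with the hairpins in order, at medians of -0.62, -0.34 and -0.03. RPL17, one of them, was under 10 CPM and is no member. Of 15 genes mutated in Diamond-Blackfan anaemia, an inherited failure of red cell production, 13, 10 and 7 were below shGFP, at medians of -0.44, -0.18 and 0.05. The medians of the Diamond-Blackfan genes lay near those of all 74 members, -0.44, -0.18 and 0.11, and those of the tunnel proteins lay below them.

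Paralogs did not always share a pattern. RPS27, a zinc-finger protein of the small subunit, had 526, 324 and 277 CPM with shRARRES2_1, 567, 388 and 409.8 with shRARRES2_2 and 565, 890.2 and 415 with shRARRES2_3, against 591, 1286 and 448 CPM with shGFP. It was highest in shGFP replicate 2 and shRARRES2_3 replicate 2, and each hairpin overlapped the controls. Its paralog RPS27L (ENSG00000185088.13, chr15:63125872-63158021, minus strand), a known p53 target, had 23.5, 43.6 and 33.3 CPM with shRARRES2_1, 65.2, 46.8 and 49.9 with shRARRES2_2 and 29.9, 28.03 and 37.1 with shRARRES2_3, against 35.1, 43.4 and 29.5 CPM with shGFP. All shRARRES2_2 libraries were above the controls, and the first replicates of shRARRES2_1 and shRARRES2_3, high for most members, were among the 4 lowest. The F-test between hairpins gave RPS27L the lowest limma adjusted p of any member, 0.40. As printed above, RPS27 begins with a 5′ TOP motif and RPS27L does not.

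RPL22 averaged 409 CPM and its paralog RPL22L1 25.6 CPM over the 12 libraries. RPL22L1 had changes of -0.68, 0.20 and -0.61 with the hairpins in order (limma adjusted p = 0.32, 0.788 and 0.876). RPL26L1 averaged 36.2 CPM, RPL36AL 85.6 CPM and RPL7L1 238 CPM. These means are not scaled by length. RPL3L, RPL39L and RPL10L, paralogs known from muscle and testis, had means of 0.121, 0.0291 and 0.00433 CPM, under the 0.131 to 0.223 CPM that 3 reads are worth.

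Ribosomal proteins outside the name rule include FAU, which is made as a fusion with a ubiquitin-like protein, and RACK1, a signalling scaffold on the small subunit. Of 7 such genes, paralogs of members included, 4, 7 and 6 were above shGFP with the hairpins in order, at medians of 0.34, 0.20 and 0.26, and 0 were called. FAU averaged 154 ± 104, 106 ± 5.56 and 157 ± 102 CPM with the 3 hairpins in order, against 115 ± 63.3 CPM with shGFP (SD, n = 3 each). It was highest in the first replicates of shRARRES2_1 and shRARRES2_3, and each hairpin overlapped the controls.

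Other genes of the translation machinery were counted beside the members. Of 21 other 5′ TOP messenger RNAs tested, among them EEF1A1 and EEF2 of elongation, 14 were below shGFP with shRARRES2_1 and 11 with shRARRES2_2, and 13 were above with shRARRES2_3. EEF1A1 had changes of -0.61, -0.29 and 0.22. Of 26 genes of ribosome biogenesis, 15, 22 and 24 were above shGFP, at medians of 0.13, 0.33 and 0.43. Of 10 regulators of 5′ TOP translation, including LARP1 and MTOR, 7, 8 and 6 were below shGFP, at medians of -0.13, -0.25 and -0.14. None of these genes was called.

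The 77 mitochondrial ribosomal proteins, which serve translation inside the organelle, had medians above 0 with each hairpin. Above shGFP were 66, 66 and 69 of them, at medians of 0.50, 0.37 and 0.42, against -0.44, -0.18 and 0.11 for the cytosolic ones, with 0 called. The median level of this list was 71.1 and 72.3 CPM in the first replicates of shRARRES2_1 and shRARRES2_3, against 26.7 to 45.4 CPM in the other 10 libraries.

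Host RNAs carry in their introns the small nucleolar RNAs that guide modification of ribosomal RNA. They were the one neighbouring list with called genes. Of 11 tested, 11, 9 and 10 were below shGFP, at medians of -0.94, -0.55 and -0.78. GAS5, ZFAS1 and C6orf48 fell with shRARRES2_1, by 1.98, 1.98 and 2.15 (log2; limma adjusted p = 0.0373, 0.0373 and 0.0397). GAS5 had 112, 64.9 and 61.7 CPM with shRARRES2_1, 106, 102 and 116 with shRARRES2_2 and 83, 141 and 106 with shRARRES2_3, against 242, 266 and 441 CPM with shGFP. All 9 hairpin libraries were below the controls, as was the case for 0.729% of all genes tested. Each of the 3 genes was called in 8 or 9 of 26 alternatives, with adjusted p up to 0.254 (without shRARRES2_1 replicate 2) and, by edgeR, of 0.0860, 0.0567 and 0.0860. With shRARRES2_1 replicates 2 and 3 averaged, the limma adjusted p was 0.239, 0.219 and 0.239. DESeq2, which called 497 genes with shRARRES2_1 against 26 by limma, gave them adjusted p of 1.1e-05, 4.6e-07 and 2.7e-06. Their log2 change stayed between -2.43 and -1.62 under these alternatives. This list was chosen with results of these libraries known, so its direction is no independent evidence.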

How the data were processed

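Messenger RNA was sequenced in 12 libraries of 786-O cells, whose titles give group and replicate. The submitters' processing notes name the GRCh38 (hg38) build, STAR 2.5.2 and Trim Galore 0.6.1 beside CASAVA and edgeR; annotation, strand and the treatment of reads with several origins are not given in the sources used here. The authors deposited 1 table of CPM per gene, a depth-scaled signal whose columns carry TMM factors; plain CPM had been assumed, and the tests were kept. Divided by what 1 read is worth, 100% of the values came out whole at a tolerance of 1e-06, so reads were recovered and depth is known (12599424 to 23594195 reads). The value of 3 reads was 0.131 to 0.223 CPM, and intervals of this kind would cover counting error only.

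The 15236 genes that reached 1 CPM in 3 or more libraries entered limma 3.58.1 (R 4.3.3) on log2(CPM + 1), a scale that understates changes of low genes, over all 12 libraries with group means, an intensity trend in eBayes and Benjamini-Hochberg adjusted p under 0.05. The limma and edgeR steps were checked on simulated data. Identifiers were matched to GENCODE 29 (58261 of 58381) for position, length and GC content of the transcript with the best APPRIS level, the shortest where several tied. Replicates 2 and 3 of shRARRES2_1 lay far closer together than any other pair of a group. Their chi-square per degree of freedom was 2.95, against 64.8 to 378 for the other pairs, so no pair agreed within sampling noise. No label says how these replicates are related. The main fit counts them as separate libraries, which can make the spread within shRARRES2_1 look smaller, and an alternative averaged them. edgeR 4.0.16 and DESeq2 1.42.0 on recovered reads, other pseudocounts, filters and scalings, a replicate block and leaving out libraries were tried as alternatives.

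Members and lists were chosen with earlier results of these data known. Named are members called in any test, the 4 highest and 4 lowest changes per hairpin (a selection of them), the extremes of level and of departure, those at the threshold, the P stalk, RPL5 and RPL11, paralog pairs, RARRES2 and examples of each list. The subunit shares, RPL37A, RPL13A, RPL10, RPL15, RPS6, RPL12, RPS13, RPS24, ZFAS1, C6orf48, MTOR, KRT8, VIM and CA9 were singled out after their values were seen. A few genes are not reported here by name.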

Additional observations from a re-analysis of the deposited data

How the results depend on the processing

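The count of 0 called ribosomal protein genes was the same in each comparison under the alternatives run, leaving out each library included (0 to 0), except that DESeq2 called 1 (RPL37) with shRARRES2_1. The median change of the members ranged from -0.88 to -0.08 with shRARRES2_1, -0.43 to 0.08 with shRARRES2_2, -0.18 to 0.43 with shRARRES2_3 and -0.36 to 0.13 for the mean of the hairpins when 1 library was left out; the highest value was each time without shGFP replicate 2. The large-minus-small difference of means was -0.19 to -0.12, -0.16 to -0.15, -0.21 to -0.12 and -0.18 to -0.14 in these fits. Taken between the subunit medians, an alternative chosen after seeing the data, it was -0.049, -0.075, -0.11 and -0.0045 with all libraries. With 1 left out it was -0.10 to -0.005, -0.15 to -0.07, -0.20 to -0.07 and -0.11 to 0.01, the last without shRARRES2_3 replicate 2. Its sign was thus not stable for the mean of the hairpins. Nor was it for shRARRES2_1, where the difference of medians was 0.011 with its replicates 2 and 3 averaged. Scaling to the same total moved the median of all genes with shRARRES2_2 to -0.03, against 0.07.

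Replicate numbers were not taken to pair the samples: 11 of 18 same-number correlations of deviations were over 0.1 (range -0.193 to 0.754), and 3 of 12 libraries correlated best with their own number. With a replicate block 0 members were called, and the counts over all genes were 21, 10, 1, 1 and 53 for the 3 hairpins, their mean and the F-test, against 26, 7, 1, 1 and 38. Those counts were 3, 4, 1, 1 and 20 by edgeR and 497, 347, 16, 132 and 590 by DESeq2, and they ranged from 3 to 195, 1 to 119, 1 to 1, 1 to 358 and 0 to 92 with 1 library left out. The count with shRARRES2_1 was 5 at a pseudocount of 0.1 or with a mean of 10 CPM required, 13 with any read, 6 at the same total (8 at the same total without the members), 64 in a fit of the groups compared and 6 with its replicates 2 and 3 averaged. The count with shRARRES2_2 was 2 under each of these except the pseudocount and the mean of 10 CPM, and the F-test called 0 in the last 2. The causes were not tested. No result on a member was shown to be limited by depth: the fewest reads of a member in a library were 126 (RPL26).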
